A study of Mus musculus with 12 samples.

Results

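The genes described here are 29 genes of cholesterol and fatty acid synthesis in mouse bone marrow. They were chosen by symbol from a list of the pathway's enzymes and regulators, with earlier results of these data known. All 29 were among the 24415 genes of the count table. They were sorted by role into 8 genes of the mevalonate arm, 10 of the sterol arm, 5 regulators and transport proteins, and 6 of the fatty acid arm. RNA sequencing was done on whole marrow of female C57BL/6J mice aged 8 weeks, in 12 libraries. Sham mice with isotype antibody gave replicates 1 to 4, flame-burned mice with isotype antibody gave replicates 5 to 8, and flame-burned mice with antibody against G-CSF gave replicates 9 to 12. G-CSF is the cytokine that drives neutrophil production in the marrow. Antibody was first given 12 hours before injury, then at injury and daily, and marrow was taken on day 7 in all groups. The sham group thus carried the same isotype antibody and harvest time as the burn group. None of the 12 libraries came from sham mice given the G-CSF antibody, so its effect without injury cannot be told from these data.

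Cholesterol and fatty acids are both built from cytosolic acetyl-CoA. The mevalonate arm condenses acetyl-CoA and carries it through mevalonate to isoprenoid diphosphates and squalene, and the sterol arm closes squalene into lanosterol and trims it to cholesterol. Transcription of both pathways is driven by sterol regulatory element binding proteins, which the protein Scap escorts for activation when membranes are low in sterol and which Insig proteins hold back when sterol is plentiful. In marrow, dividing blood cell precursors need these lipids for new membranes.

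The promoters of 4 genes are shown first, those with a sequence entry in the mevalonate and sterol arms that differed most between burn and sham, because motifs for these transcription factors can be looked for in them. RefSeq promoter sequence of build GRCm38.p6, from 250 bases before to 50 bases after the gene start, was held for 23 of the 29 genes. No entry was held for Fdps, Fdft1, Sqle, Stard4, Scd1 and Scd2. Capitals mark CCAAT, the box read by NF-Y, or its reverse complement ATTGG, and in Hmgcs1 also TCACNCCAC, a core of the sterol regulatory element. The regions are chr8:64733529-64733828, - strand, for Msmo1, chr8:122443373-122443672, - strand, for Mvd, chr9:42264251-42264550, - strand, for Sc5d, and chr13:119690101-119690400, + strand, for Hmgcs1.
Msmo1: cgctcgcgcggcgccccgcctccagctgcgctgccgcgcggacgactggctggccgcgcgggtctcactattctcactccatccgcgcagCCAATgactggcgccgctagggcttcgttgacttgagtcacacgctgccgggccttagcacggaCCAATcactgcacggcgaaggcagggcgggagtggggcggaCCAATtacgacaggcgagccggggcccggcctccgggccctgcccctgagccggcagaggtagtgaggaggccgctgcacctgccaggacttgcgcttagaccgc
Mvd: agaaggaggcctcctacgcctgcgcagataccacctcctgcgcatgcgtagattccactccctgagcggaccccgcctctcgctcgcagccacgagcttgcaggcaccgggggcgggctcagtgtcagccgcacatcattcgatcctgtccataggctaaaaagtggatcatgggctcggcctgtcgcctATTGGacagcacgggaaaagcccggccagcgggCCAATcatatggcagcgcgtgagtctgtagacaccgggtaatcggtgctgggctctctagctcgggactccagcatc
Sc5d: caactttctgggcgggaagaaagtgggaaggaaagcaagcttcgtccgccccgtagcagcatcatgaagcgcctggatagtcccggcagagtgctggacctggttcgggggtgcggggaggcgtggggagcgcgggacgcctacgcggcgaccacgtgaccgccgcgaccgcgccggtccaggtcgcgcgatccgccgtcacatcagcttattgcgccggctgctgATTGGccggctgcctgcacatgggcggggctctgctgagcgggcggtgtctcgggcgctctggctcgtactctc
Hmgcs1: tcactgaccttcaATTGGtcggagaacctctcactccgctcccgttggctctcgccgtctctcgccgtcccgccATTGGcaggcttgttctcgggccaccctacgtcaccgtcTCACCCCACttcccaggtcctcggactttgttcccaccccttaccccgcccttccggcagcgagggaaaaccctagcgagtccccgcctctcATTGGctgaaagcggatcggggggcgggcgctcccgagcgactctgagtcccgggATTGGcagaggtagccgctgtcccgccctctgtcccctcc

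All 4 promoters held at least 1 CCAAT box on either strand, with 3 in Msmo1, 2 in Mvd, 1 in Sc5d and 4 in Hmgcs1. Over the 23 genes with an entry, CCAAT was found in 19 (82.6%), against 41.1% of all 27025 genes in the RefSeq promoter set. GGGCGG, the box read by Sp1, was also found in 19 of 23 (82.6%), against 38.2% of all genes. CACGTG, an E-box, was found in 5 of 23 (21.7%), against 8.09%. TCACNCCAC was found in Hmgcs1 alone, 137 bases before the start on the + strand, which is 1 of 23 genes (4.35%) against 1.44% of all genes. Both strands were searched in every promoter, and among the member promoters the only overlapping pair of matches was in Fasn. The RefSeq set was not limited to genes expressed in this marrow, as the members are, so these shares are not matched for expression. A match describes these letters in this window and is not a measured binding site.

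Total counts per library ran from 18780399 to 25708084. All 29 genes passed the filter on low counts, as did 15283 genes in all, with 89 counts for the lowest member value (Tm7sf2) and 7235 for the highest (Acly). Levels below are CPM, the counts of a gene scaled to a common library total with TMM factors, as mean ± SD over 4 libraries unless each library is given. Differences are log2 fold changes ± SE, with adjusted p from edgeR's quasi-likelihood test and Benjamini-Hochberg adjustment over all 15283 genes, and a gene was called at an adjusted p under 0.05. Per kb of exon, the scale on which genes can be compared, Acly had the highest level in sham marrow at 51.2 CPM per kb. It was followed by Fdps at 26.3, Srebf2 at 24.3, Scd1 at 23.1, Ebp at 22.5 and Scd2 at 20.9 CPM per kb. Hsd17b7 and Lss had the lowest at 1.90 and 2.01 CPM per kb.

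Marker genes of the marrow's cell types differed between the groups along with the synthesis genes. The summed level of 14 neutrophil markers was 44200 to 56151 CPM in sham, 81614 to 98593 in burn and 27748 to 36452 in burn with anti-G-CSF, with 14 of 14 higher after burn and 14 of 14 lower with the antibody. The 15 erythroid markers summed to 13199 to 14423 CPM in sham, 6115 to 8653 in burn and 13225 to 20028 with anti-G-CSF, with 15 of 15 lower and then 15 of 15 higher. Monocyte markers (8 genes) followed the neutrophil direction in 7 of 8 in each of these comparisons, while all 10 B-lineage markers and 9 of 11 island macrophage markers followed the erythroid direction. Markers of brain neurons, which are not marrow cells, summed to 595 to 654 CPM in sham, 526 to 931 in burn and 807 to 1482 with anti-G-CSF, highest in replicate 12. Fat cell markers (9 genes, 6 of them past the filter), of interest because fat cells carry much Scd1, summed to 89.5 to 119.8 CPM in sham, 72.7 to 114 in burn and 128 to 247 with anti-G-CSF. With anti-G-CSF, 3 of 6 were higher than in burn, against 17.7% of all tested genes. The sum rested mostly on Lpl, at 78.5, 73.9 and 141 CPM in sham, burn and anti-G-CSF and highest in replicates 12 and 9 (198 and 154 CPM). Adipoq was at 4.83, 2.58 and 2.85 CPM and was not called between anti-G-CSF and burn (adjusted p = 0.825). No marker of these lists was at 0 in all libraries. In RNA of whole marrow, fewer cells of a type and less RNA per cell cannot be told apart, and the part of these markers in the values below was not tested beyond the brain-marker fits given beside them.

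**Figure D1:**
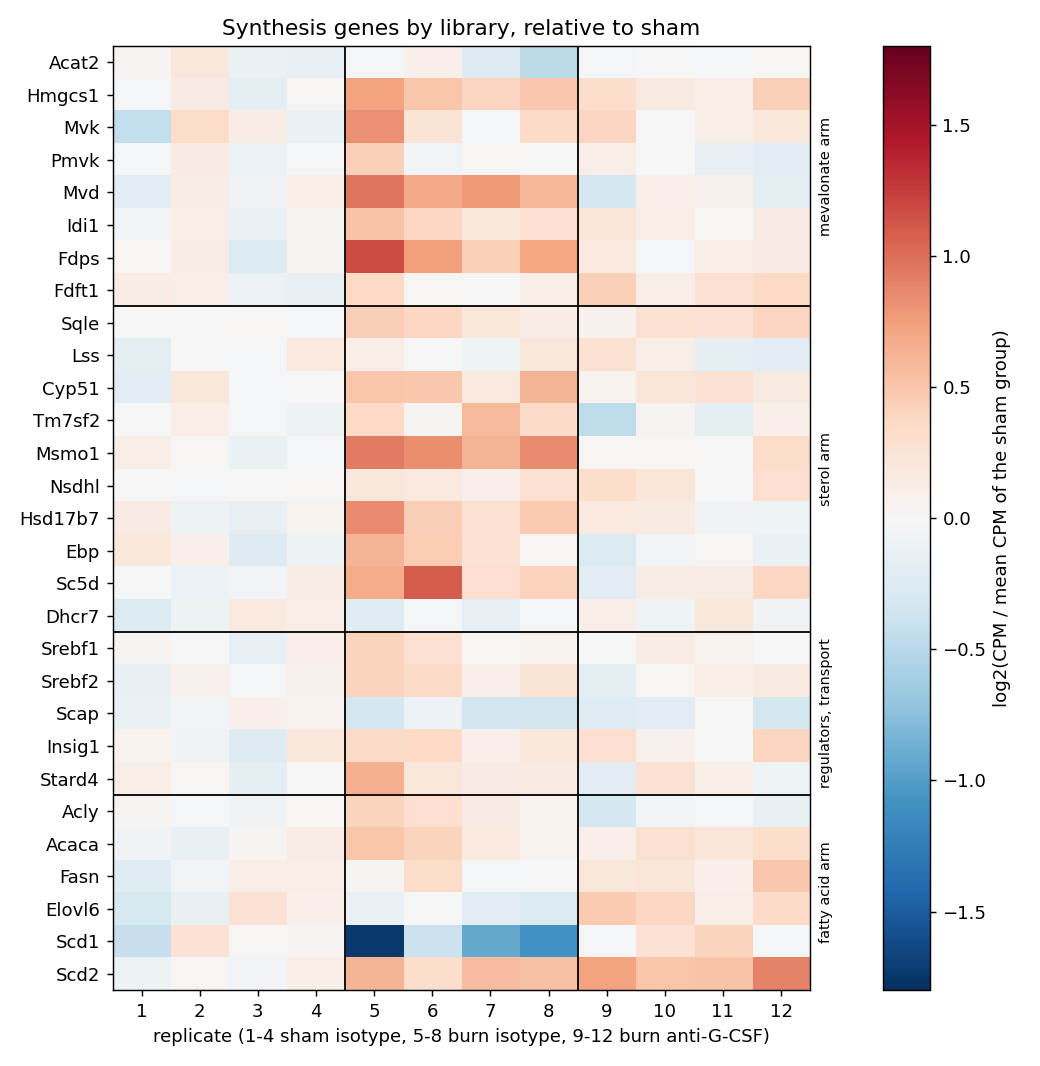
Level of each of the 29 genes (rows, by role) in each library (columns, replicates 1 to 12), as log2 of its CPM over the sham mean, with red above and blue below it. Most rows of the mevalonate and sterol arms are red in replicates 5 to 8 and paler in 9 to 12, while Scd1 is blue in replicates 5 to 8 and Scd2 is red from replicate 5 on.

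Burn against sham asked what injury did under isotype antibody. Of the 29 genes, 13 rose and 2 fell, against 11.1% of all 15283 tested genes called higher, 9.92% called lower and 21% called in either direction. The rises were 4 of 8 genes in the mevalonate arm, 6 of 10 in the sterol arm, 1 of 5 regulators and transport proteins, and 2 of 6 in the fatty acid arm. The median log2 difference of the 29 was 0.29, beside -0.0003 over all genes. Because the list was chosen with earlier results of these data known, such contrasts with all genes only describe it. All 4 burn libraries were above all 4 sham libraries for 13 genes, against 12.9% of all genes, and below them for 0 genes, against 11.8%. The 13 rises became 8 without replicate 3 or without replicate 5, and the 2 falls became 1 without any 1 of replicates 3, 4, 5, 7 and 8. Scaling libraries by total count alone lost 4 of these calls, and testing with limma-voom lost 3.

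In the mevalonate arm, Mvd and Fdps differed most. Mvd, the decarboxylase that makes isopentenyl diphosphate (chr8:122433596-122443422, - strand, mm10), was at 15.3, 19.3, 16.8 and 19.0 CPM in the sham libraries, 34.3, 28.3, 30.0 and 26.5 in burn and 14.3, 18.7, 18.7 and 15.8 in burn with anti-G-CSF. Every burn library lay above every library of the other groups. Mvd rose after burn (log2 difference 0.76 ± 0.12, adjusted p = 2.02e-04) and was lower (log2 difference -0.82 ± 0.12, adjusted p = 3.82e-05) with anti-G-CSF than in burn. Fdps, which makes farnesyl diphosphate (chr3:89093588-89101967, - strand), was at 39.2, 41.8, 32.1 and 39.6 CPM in sham, 86.0, 63.9, 51.5 and 62.1 in burn and 43.1, 37.8, 41.0 and 42.2 with anti-G-CSF. The burn libraries again stood above all others, with replicate 5 far above the rest of its group. The log2 differences of Fdps were 0.79 ± 0.12 (adjusted p = 2.58e-04) for burn against sham and -0.68 ± 0.12 (adjusted p = 4.08e-04) for anti-G-CSF against burn.

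Hmgcs1, the HMG-CoA synthase that commits acetyl units to this arm (chr13:119690351-119708260, + strand), was at 51.0, 57.2, 46.3 and 52.5 CPM in sham, 85.1, 73.5, 67.9 and 72.7 in burn and 64.7, 58.0, 56.0 and 69.4 with anti-G-CSF. Burn libraries were all above sham, and the anti-G-CSF libraries overlapped with both other groups. Hmgcs1 rose (log2 difference 0.53 ± 0.09, adjusted p = 4.20e-04) after burn and was lower (log2 difference -0.27 ± 0.09, adjusted p = 0.0287) with anti-G-CSF, a call lost without any 1 of replicates 5, 9, 10 and 11 (log2 difference -0.28 to -0.20, adjusted p 0.0521 to 0.113). Idi1, the isomerase of isopentenyl diphosphate, rose from 39.0 ± 2.79 to 49.6 ± 4.75 CPM after burn (log2 difference 0.35 ± 0.08, adjusted p = 0.00599). Its level with anti-G-CSF, 42.7 ± 2.18 CPM, was not called different from burn (adjusted p = 0.0535). Some alternative fits called Idi1 lower, from an adjusted p of 0.0238 without replicate 7 to 0.0447 with only the 2 groups compared. The other alternatives did not. The other members of the arm passed the test in no comparison. The thiolase Acat2 was at 11.9, 10.7 and 11.8 CPM in sham, burn and anti-G-CSF, and the kinases Mvk and Pmvk at 6.20, 8.05 and 7.03 and at 15.0, 16.2 and 14.5 CPM. Fdft1, the squalene synthase, was at 29.6 ± 2.95, 32.5 ± 3.79 and 36.5 ± 3.30 CPM. Fdft1 overlaps Ctsb on the opposite strand by 773 bases, and Acat2 and Idi1 have close relatives in the table (Acat3 and Idi2), so counts of these genes are uncertain where reads were shared.

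**Figure D2:**
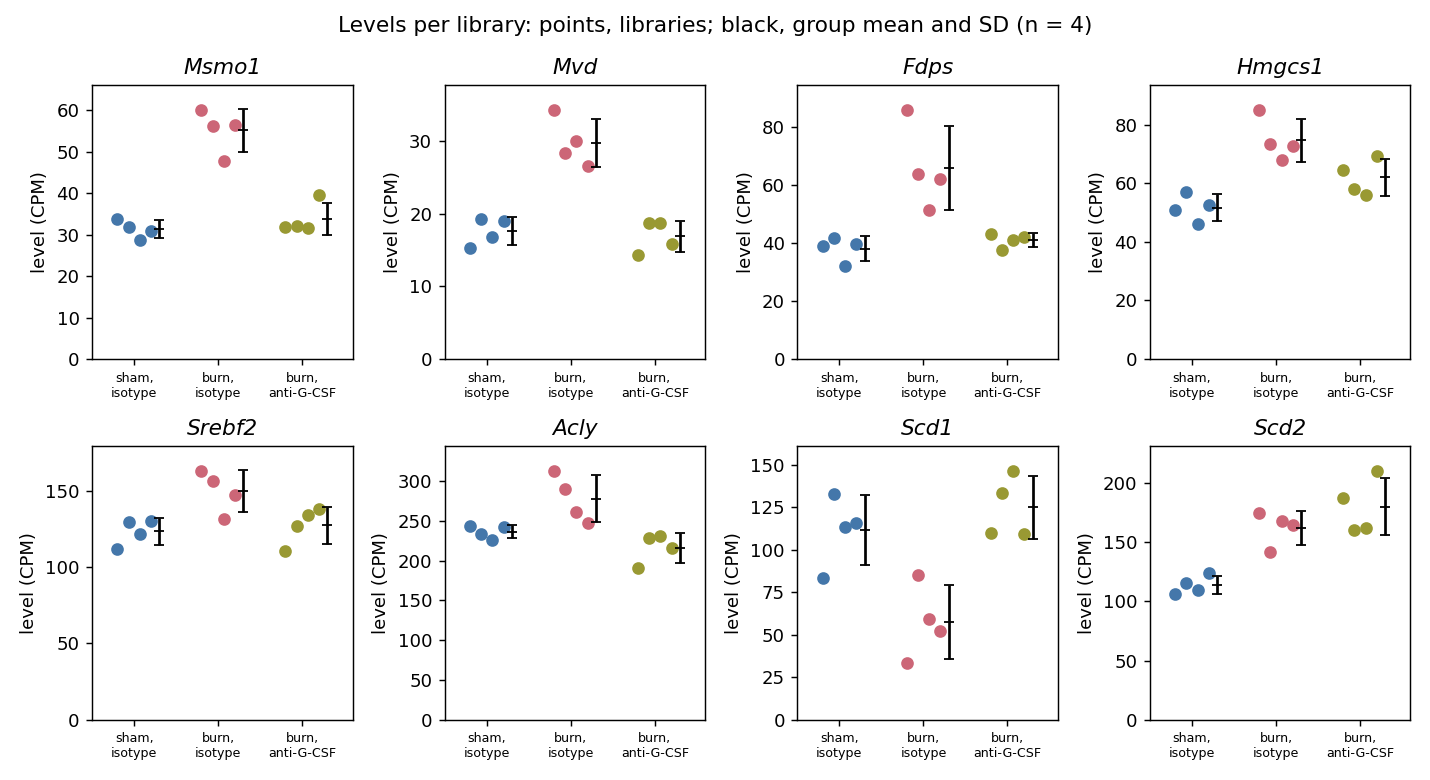
CPM of 8 of the genes in each library (points, by group), with the group mean and SD over 4 libraries in black; each y axis starts at 0. The burn libraries stand above both other groups for Msmo1, Mvd and Fdps, Scd1 has its lowest mean in burn, and Scd2 stays above sham in both burned groups.

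In the sterol arm, 6 of 10 genes rose after burn, and Msmo1 differed most. Msmo1, an oxidase in the removal of methyl groups from the sterol ring (chr8:64718145-64733578, - strand), was at 33.8, 31.8, 28.7 and 30.9 CPM in sham, 60.0, 56.2, 47.8 and 56.4 in burn and 31.8, 32.2, 31.6 and 39.4 with anti-G-CSF. The burn libraries were above all others, and sham and anti-G-CSF libraries overlapped. Msmo1 rose (log2 difference 0.82 ± 0.09, adjusted p = 1.99e-05) after burn and was lower (log2 difference -0.71 ± 0.09, adjusted p = 1.68e-05) with anti-G-CSF. Sc5d, a sterol desaturase (chr9:42254177-42264300, - strand), was at 21.6, 20.0, 20.7 and 23.5 CPM in sham, 34.0, 45.4, 26.4 and 28.7 in burn and 18.9, 23.6, 23.6 and 27.9 with anti-G-CSF. Burn libraries were all above sham, with replicate 6 the highest, and 1 anti-G-CSF library, replicate 12, was above the lowest burn library. Sc5d rose (log2 difference 0.65 ± 0.15, adjusted p = 0.00465) and was lower with anti-G-CSF (log2 difference -0.52 ± 0.15, adjusted p = 0.0136), the second call being lost without any 1 of replicates 6 and 9 (log2 difference -0.41 to -0.34, adjusted p 0.0538 to 0.0573).

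Cyp51, the demethylase of lanosterol, rose from 26.4 ± 2.94 to 36.0 ± 4.50 CPM after burn (log2 difference 0.45 ± 0.10, adjusted p = 0.00433). With anti-G-CSF it was at 29.7 ± 1.73 CPM, lower than burn (log2 difference -0.28 ± 0.10, adjusted p = 0.0454), and that call was lost without any 1 of replicates 2, 3, 4, 5, 6, 8, 9, 10, 11 and 12 (log2 difference -0.29 to -0.22, adjusted p 0.0526 to 0.141). Burn libraries of Cyp51 overlapped with both other groups. Hsd17b7, a sterol ketone reductase, was at 9.59 ± 0.880, 13.8 ± 2.42 and 9.96 ± 0.971 CPM in sham, burn and anti-G-CSF, with log2 differences of 0.53 ± 0.15 (adjusted p = 0.0142) and -0.47 ± 0.15 (adjusted p = 0.0184). Its burn libraries did not overlap with either other group, yet the calls were lost without any 1 of replicates 2, 3 and 5 (log2 difference 0.40 to 0.49, adjusted p 0.052 to 0.0788) for burn and without any 1 of replicates 5, 11 and 12 (log2 difference -0.42 to -0.35, adjusted p 0.0509 to 0.0929) for anti-G-CSF. Ebp, a sterol isomerase, was at 39.3 ± 5.06, 50.2 ± 8.46 and 36.8 ± 3.01 CPM, with log2 differences of 0.35 ± 0.12 (adjusted p = 0.0378) and -0.45 ± 0.12 (adjusted p = 0.00663). The rise of Ebp was lost without any 1 of replicates 2, 3, 4, 5, 6, 10 and 12 (log2 difference 0.26 to 0.38, adjusted p 0.0522 to 0.159).

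Sqle, the squalene epoxidase, rose from 20.8 ± 0.238 to 25.5 ± 2.56 CPM (log2 difference 0.29 ± 0.10, adjusted p = 0.0397), and stood at 24.8 ± 2.19 CPM with anti-G-CSF (adjusted p = 0.772 against burn). The rise of Sqle was lost without any 1 of replicates 1, 2, 3, 4, 5, 6, 10 and 11 (log2 difference 0.24 to 0.29, adjusted p 0.062 to 0.148). The other sterol genes passed the test in no comparison. Lss, the lanosterol synthase, was at 9.39, 9.84 and 9.47 CPM in sham, burn and anti-G-CSF, and Dhcr7, the last reductase of the route, at 16.0, 14.9 and 16.6 CPM. Tm7sf2, another sterol reductase, was at 6.08, 7.75 and 5.66 CPM, and Nsdhl, a dehydrogenase of the demethylation steps, at 15.8, 18.0 and 18.4 CPM. Lss overlaps 4930483K19Rik on the opposite strand by 11269 bases and Tm7sf2 overlaps Vps51 by 9 bases, so their counts may include reads of these genes.

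Among the regulators, Srebf2, which encodes the sterol regulatory element binding protein most tied to cholesterol genes, was at 112, 129.6, 121 and 131 CPM in sham, 163, 157, 132 and 147 in burn and 110.4, 127, 134 and 138 with anti-G-CSF. Burn libraries were above sham, and anti-G-CSF libraries overlapped with burn. Srebf2 rose (log2 difference 0.28 ± 0.09, adjusted p = 0.0266) and was lower with anti-G-CSF (log2 difference -0.23 ± 0.09, adjusted p = 0.0441). The rise was lost without any 1 of replicates 1, 3, 5 and 6 (log2 difference 0.23 to 0.26, adjusted p 0.0623 to 0.0982) and the antibody difference without any 1 of replicates 2, 3, 4, 5, 6, 8, 9, 10 and 11 (log2 difference -0.24 to -0.15, adjusted p 0.0564 to 0.181). Scap, the escort protein, fell from 65.3 ± 4.39 to 54.3 ± 4.42 CPM (log2 difference -0.27 ± 0.08, adjusted p = 0.0282), and the call was lost without any 1 of replicates 3, 4, 5, 7 and 8 (log2 difference -0.26 to -0.24, adjusted p 0.0691 to 0.0783). Srebf1, the family member most tied to fatty acid genes, was at 58.5, 67.5 and 60.5 CPM in sham, burn and anti-G-CSF and was not called. Insig1, the retention protein, at 28.2, 33.6 and 32.5 CPM, and Stard4, a sterol transfer protein, at 18.7, 23.1 and 19.3 CPM, were not called either.

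The fatty acid arm did not move as a block, and its desaturases went apart. Scd1, a stearoyl-CoA desaturase that makes monounsaturated fatty acids (chr19:44394450-44407709, - strand), was at 83.5, 133, 114 and 116 CPM in sham, 33.3, 85.4, 59.1 and 52.4 in burn and 110.0, 134, 146 and 109 with anti-G-CSF. Burn replicate 5 was the lowest of all, replicate 6 lay above sham replicate 1, and every anti-G-CSF library was above every burn library. Scd1 fell (log2 difference -0.95 ± 0.24, adjusted p = 0.012) after burn and was higher (log2 difference 1.12 ± 0.24, adjusted p = 0.00318) with anti-G-CSF. Scd2, a second desaturase (chr19:44293676-44306862, + strand), was at 106, 115, 109.8 and 124 CPM in sham, 174, 141, 167 and 164 in burn and 187, 160.3, 162 and 210.3 with anti-G-CSF. All 8 libraries of burned mice were above all sham libraries. Scd2 rose (log2 difference 0.51 ± 0.09, adjusted p = 6.76e-04) after burn, and anti-G-CSF was not called different from burn (adjusted p = 0.208). Per kb of exon, Scd1 over Scd2 was 0.886 to 1.30 in the sham libraries, 0.216 to 0.682 in burn and 0.586 to 1.02 with anti-G-CSF, a ratio chosen after the values were seen. The 2 genes are close relatives, so reads shared between them make each count uncertain.

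Acly, which cuts citrate to cytosolic acetyl-CoA, was at 243, 234, 226 and 242 CPM in sham, 313, 290.0, 261 and 247 in burn and 190.1, 229, 230.3 and 215 with anti-G-CSF. Its burn libraries were above those of both other groups. The burn difference was not called (adjusted p = 0.0568). Some alternative fits called it as a rise, from an adjusted p of 0.0151 with the brain-marker covariate to 0.0494 without replicates 9 and 12. The other alternatives did not call it. Acly was lower with anti-G-CSF than in burn (log2 difference -0.36 ± 0.08, adjusted p = 0.0029). Acaca, the acetyl-CoA carboxylase, rose from 41.8 ± 3.44 to 51.3 ± 6.95 CPM after burn (log2 difference 0.29 ± 0.10, adjusted p = 0.0364), and the call was lost without any 1 of replicates 1, 2, 3, 5, 6, 10 and 11 (log2 difference 0.22 to 0.30, adjusted p 0.0528 to 0.152). Elovl6, the elongase of long saturated chains, was at 24.9 ± 4.18, 22.6 ± 1.76 and 31.4 ± 3.08 CPM in sham, burn and anti-G-CSF and was higher with anti-G-CSF than in burn (log2 difference 0.47 ± 0.12, adjusted p = 0.00443). Fasn, the fatty acid synthase, was at 80.8 ± 8.61, 86.4 ± 10.2 and 96.7 ± 11.2 CPM and was called in no comparison.

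**Figure D3:**
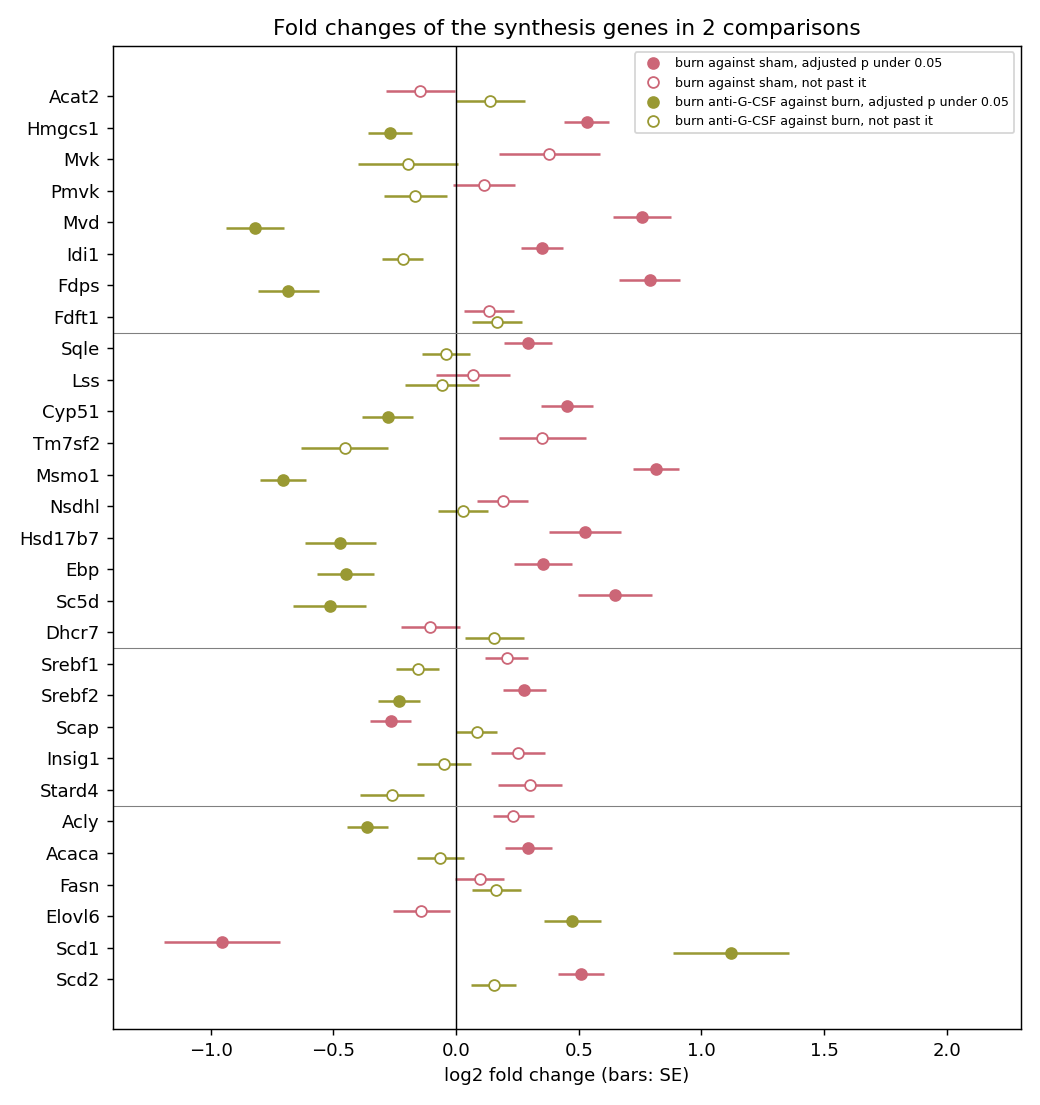
log2 fold change (x axis, bars SE) of each of the 29 genes (y axis, by role) for burn against sham and for burn with anti-G-CSF against burn, filled where the adjusted p was under 0.05. The filled points of the mevalonate and sterol arms lie right of 0 for burn and left of 0 for anti-G-CSF, and Scd1 has the reverse, at -0.95 and 1.12.

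Burn with anti-G-CSF against burn asked what neutralising the cytokine did in injured mice. Of the 29 genes, 10 were lower and 2 higher, against 16.9% of all tested genes lower, 17.7% higher and 34.6% called in either direction. The lower genes were 3 of 8 in the mevalonate arm (Hmgcs1, Mvd and Fdps), 5 of 10 in the sterol arm (Cyp51, Msmo1, Hsd17b7, Ebp and Sc5d), Srebf2, and Acly, and the higher were Elovl6 and Scd1. The anti-G-CSF libraries were all below the burn libraries for 6 genes, against 16% of all genes, and all above for 2, against 13%. The median log2 difference was -0.17 beside 0.08 over all genes, and it was 0.019 beside 0.26 when libraries were scaled by total count alone, where 5 genes were lower and 8 higher. The share of all genes called under that scaling is not given here, so those counts cannot be set against it. The 10 lower genes became 6 without replicate 5, 9 or 11.

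This comparison shares the burn libraries with burn against sham, so opposite signs in the 2 comparisons are not independent of each other. Markers of brain neurons were also higher with anti-G-CSF in 8 of 12 genes, and 6 of 6 heart markers were higher. Without replicates 9 and 12, where the brain markers stood highest, 4 genes were lower (Hmgcs1, Mvd, Fdps and Msmo1) and 1 was higher (Scd1). The log2 differences of the genes no longer called in that smaller set were -0.46 for Hsd17b7, -0.50 for Sc5d, -0.36 for Ebp, -0.21 for Cyp51, -0.19 for Srebf2, -0.26 for Acly and 0.40 for Elovl6, all in the direction seen with all libraries. With the brain-marker level as a covariate, 4 were lower (Mvd, Fdps, Msmo1 and Tm7sf2) and 2 higher (Elovl6 and Scd1). The log2 differences of the genes no longer called with the covariate were -0.32 for Hmgcs1, -0.38 for Hsd17b7, -0.27 for Sc5d, -0.25 for Ebp, -0.19 for Cyp51, -0.17 for Srebf2 and -0.23 for Acly.

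Burn with anti-G-CSF against sham asked how far the burned, antibody-treated marrow stood from uninjured marrow. With TMM scaling, Scd2 alone was called, higher (log2 difference 0.66 ± 0.09, adjusted p = 0.0017), against 7.09% of all tested genes higher and 3.91% lower. It was higher than every sham library in 4 of 4 libraries, and 2 genes in all (Scd2 and Sqle) had no overlap, against 10.1% of all genes lying above and 6.96% lying below. No gene was called lower by edgeR's quasi-likelihood test, nor by DESeq2 or limma-voom, and 1 had an unadjusted p under 0.05 in that direction (Scap). At an unadjusted p under 0.05, 7 genes were higher. Of all 15283 tested genes, 2256 were higher and 1622 lower at that unadjusted threshold. The count of 1 gene called higher became 2 without replicate 3 or 10 and 3 without replicate 11. It was 7 when libraries were scaled by total count alone (Scd2 with Hmgcs1, Fdft1, Sqle, Acaca, Fasn and Elovl6) and 6 with upper quartile factors (the same genes but Acaca). For those scalings, too, the share of all genes called is not given here. Brain neuron markers were higher in 8 of 12 genes here, and with their level as a covariate the difference of Scd2 was 0.39 (adjusted p = 0.464), while without replicates 9 and 12 it was 0.50 (adjusted p = 0.0296). The genes not called are not shown to be at sham levels: Hmgcs1 was at 62.0 ± 6.17 CPM with anti-G-CSF against 51.7 ± 4.51 in sham (adjusted p = 0.0715).

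**Figure D4:**
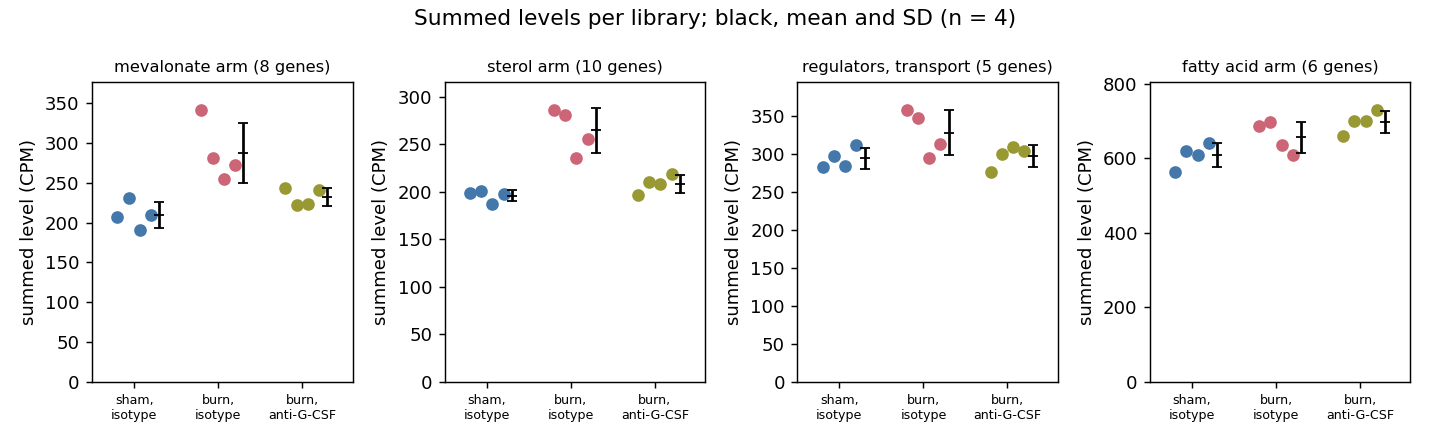
Summed CPM of each role list in each library (points, by group), with the mean and SD over 4 libraries in black; each y axis starts at 0. The mevalonate sum is 209 ± 16.4, 288 ± 37.8 and 232 ± 11.2 CPM and the sterol sum 196 ± 5.82, 265 ± 23.6 and 209 ± 9.11 CPM in sham, burn and burn with anti-G-CSF.

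Summed over each arm, the burn libraries ran from 255 to 342 CPM for the mevalonate genes and from 236 to 287 CPM for the sterol genes, above every sham library (at most 230.2 and 201 CPM). The sums of the regulators overlapped between all groups. The fatty acid sum rested mostly on Acly, Scd2 and Scd1 and was 609 ± 33.1, 657 ± 41.7 and 698 ± 29.3 CPM in sham, burn and anti-G-CSF. Within the burn group, replicate 5 was the highest library for 17 of 29 genes and replicate 7 the lowest for 17. The shares of all genes with these ranks are not given here. Replicate 5 also had the highest summed neutrophil and monocyte markers of its group and the lowest erythroid markers, and replicate 7 had the lowest neutrophil and monocyte sums. Replicate 7 had the highest sums of its group for markers of brain neurons, brain glia, heart, fat cells and the B lineage. Those sums were 931, 573, 490, 114 and 1021 CPM. The part of these markers in the members' spread was not tested.

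Neighbouring pathway genes were grouped in lists. Of 14 tested genes in a list of further genes of sterol storage and synthesis, 4 rose and 0 fell after burn. With anti-G-CSF against burn, 0 were higher and 7 lower. Over all tested genes, 11.1% rose and 9.92% fell after burn, and 17.7% were higher and 16.9% lower with anti-G-CSF. In this list, Soat1, which esterifies cholesterol for storage, was at 89.6 ± 3.34, 152 ± 10.9 and 80.7 ± 13.8 CPM in sham, burn and anti-G-CSF (log2 difference 0.76 ± 0.10, adjusted p = 3.97e-05, and -0.91 ± 0.10, adjusted p = 1.69e-06). Aacs, which activates acetoacetate for lipid synthesis, was also called for burn against sham and for anti-G-CSF against burn (log2 difference 0.65 ± 0.16, adjusted p = 0.00727, and -0.97 ± 0.16, adjusted p = 2.32e-04). With anti-G-CSF against sham, the smallest adjusted p in this list was 0.0503, for Npc2, a carrier of lysosomal cholesterol.

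Of 10 tested genes of sterol efflux and oxysterols, 3 fell and 1 rose after burn, and 4 were higher and 3 lower with anti-G-CSF than in burn. Over all tested genes, 11.1% rose and 9.92% fell after burn, and 17.7% were higher and 16.9% lower with anti-G-CSF. Abca1, the exporter of cholesterol, was at 48.1 ± 3.96, 28.8 ± 3.50 and 50.7 ± 9.65 CPM, with log2 differences of -0.74 ± 0.12 (adjusted p = 3.16e-04) and 0.82 ± 0.12 (adjusted p = 5.50e-05). Mylip, a ubiquitin ligase induced by oxysterols, was likewise lower after burn and higher with anti-G-CSF than in burn (log2 difference -0.46 ± 0.09, adjusted p = 9.20e-04, and 0.40 ± 0.09, adjusted p = 0.00165). Tspo, a cholesterol-binding protein of mitochondria, was higher after burn and lower with anti-G-CSF than in burn (log2 difference 0.75 ± 0.10, adjusted p = 4.76e-05, and -0.95 ± 0.10, adjusted p = 1.24e-06). Against sham, Cyp7b1 was higher (log2 difference 1.53 ± 0.40, adjusted p = 0.0243) and Cyp27a1 lower (log2 difference -0.64 ± 0.20, adjusted p = 0.0493) with anti-G-CSF, both sterol hydroxylases. Cyp7b1 was at 2.95, 1.37, 1.24 and 3.64 CPM in replicates 9 to 12, highest in the replicates where brain markers were highest.

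Of 18 further genes of fatty acid and glyceride synthesis, 6 rose and 3 fell after burn, and 6 were higher and 6 lower with anti-G-CSF than in burn. The shares over all tested genes were 11.1% and 9.92% after burn, and 17.7% and 16.9% with anti-G-CSF. Dgat1 and Dgat2, which make triglyceride, led the list. Dgat1 was at 139 ± 4.72, 254 ± 39.7 and 88.1 ± 10.4 CPM, with log2 differences of 0.87 ± 0.10 (adjusted p = 2.07e-05) for burn and -1.53 ± 0.10 (adjusted p = 2.52e-08) for anti-G-CSF against burn, and it was below sham with anti-G-CSF (log2 difference -0.65 ± 0.10, adjusted p = 0.00392). Dgat2 had the same order (log2 difference 0.82 ± 0.10, adjusted p = 2.54e-05, then -1.19 ± 0.10, adjusted p = 1.11e-07, and against sham -0.37 ± 0.10, adjusted p = 0.0268). Hacd2, a dehydratase of chain elongation, rose after burn (log2 difference 0.44 ± 0.08, adjusted p = 8.23e-04) and was lower with anti-G-CSF than in burn (log2 difference -0.59 ± 0.08, adjusted p = 2.76e-05). Agpat3, an acyltransferase, fell after burn (log2 difference -0.39 ± 0.09, adjusted p = 0.00286) and was higher with anti-G-CSF than in burn (log2 difference 0.68 ± 0.09, adjusted p = 9.29e-06). Me1, a source of NADPH, was higher with anti-G-CSF than in sham (log2 difference 1.24 ± 0.31, adjusted p = 0.0211), highest in replicate 12.

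Of 14 genes of fatty acid oxidation, 1 rose and 1 fell after burn, and 2 were higher and 3 lower with anti-G-CSF than in burn. These small counts were near the shares over all tested genes, 11.1% and 9.92% after burn and 17.7% and 16.9% with anti-G-CSF. Ppard, a lipid-sensing receptor, rose after burn (log2 difference 0.61 ± 0.12, adjusted p = 0.00105) and was lower with anti-G-CSF (log2 difference -0.52 ± 0.12, adjusted p = 0.00223). Cpt1a, which loads fatty acids for mitochondrial entry, fell after burn (log2 difference -0.30 ± 0.10, adjusted p = 0.0467) and was below sham with anti-G-CSF as well (log2 difference -0.51 ± 0.10, adjusted p = 0.0111). With anti-G-CSF against burn, Hadhb, a subunit of the mitochondrial oxidation complex, was higher (log2 difference 0.42 ± 0.08, adjusted p = 8.32e-04) and Slc25a20, the carnitine carrier, was lower (log2 difference -0.44 ± 0.10, adjusted p = 0.0031).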

How the data were processed

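Whole-marrow RNA was measured in 12 libraries, 4 per group, with groups from the labels. Per the labels' protocols, polyadenylated RNA was made into strand-specific libraries. The values are gene counts as the authors deposited them, not normalised. The submitters' processing notes name TopHat2 and the mm10 build. Which program counted reads, with which strand setting and gene models, is not given in these sources. Of the 24415 genes, 24334 matched RefSeq by identifier, 27 symbols had become dates and 11 were blank. Starts count from 0 in the table and 1 was added to each, because 11378 of 14702 genes with the same end began 1 lower than in RefSeq.

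Counts were tested with edgeR 4.0.16 in R 4.3.3: filterByExpr by group, TMM factors, and a robust quasi-likelihood fit to all 12 libraries with 9 residual degrees of freedom, 2-sided, with Benjamini-Hochberg adjustment at 0.05. SE is the log2 difference, without its sign, divided by the root of the F value. Exon lengths were merged over GENCODE basic transcripts. The fit was tested on simulated data. DESeq2 1.42.0, limma 3.58.1, other scalings, filters and thresholds, and left-out libraries were alternatives. The named genes are all 29 members and, for each neighbouring list, up to 3 genes of the smallest p in each comparison. A few picked by that rule that were not called are left without values. Some others it picks are not reported here. Members and lists were chosen with earlier results of these data known. The labels do not say that each library is a separate mouse, so p-values measure the spread between libraries, which may be technical. Pairs of libraries within a group differed beyond counting noise.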

Additional observations from a re-analysis of the deposited data

Results flagged for a closer look

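In 4 of 87 groups of 4 libraries (29 genes in 3 groups), 1 library stood far from the other 3 by Dixon's test, which flags about 1 in 20 groups by chance. Pmvk was at 20.12 CPM in burn replicate 5, where the nearest burn library was at 15.24. Stard4 was at 29.25 CPM in the same library, with the nearest at 21.54. Scap was at 60.94 CPM in burn replicate 6, with the nearest at 52.56. Msmo1 was at 39.43 CPM in anti-G-CSF replicate 12, with the nearest at 32.17.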

How the results depend on the processing

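Of the 28 gene and comparison pairs called, 13 kept the call under all 22 alternatives other than the stricter threshold, and 0 changed sign. Mvd, Fdps, Msmo1 and Scd1 kept it in both comparisons of the burn group. Values under the alternatives are summarised here for those 28 pairs, a limit set after the values were seen. Of the 59 pairs not called, 17 gained a call under at least 1 alternative, and 19 changed sign in 57 values, none of them called, all with a main log2 difference of at most 0.17 in size. One was Scd2 for anti-G-CSF against burn, at -0.067 with the brain covariate.

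At an adjusted p of 0.01, 8 genes rose and 0 fell after burn, and 5 were lower with anti-G-CSF than in burn. For burn against sham, limma-voom lost 3 of the calls and scaling by library size alone lost 4. Scaling by library size alone gave, for anti-G-CSF against burn, 8 higher and 5 lower with a median of 0.019, and 7 higher against sham. That scaling moved the median of all genes to -0.10 for burn against sham, 0.26 for anti-G-CSF against burn and 0.08 against sham. Upper quartile factors gave 6 higher against sham. Without replicates 9 and 12, 1 gene was higher and 4 lower with anti-G-CSF than in burn. With the brain covariate, 4 were lower than burn and 0 higher than sham. The causes were not tested. Leaving out 1 library gave 8 to 14 rises and 1 to 2 falls after burn, 6 to 11 lower with anti-G-CSF than in burn, and 1 to 3 higher than sham. No paired analysis was possible because replicate numbers run from 1 to 12 with none shared between groups. With 4 libraries a group, small differences in genes with few counts may go uncalled.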
